A study of Mus musculus with 2 samples.

Results

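The genes described here encode the coreceptors of T cells and the CD4-related receptor LAG3, namely Cd4 and its neighbour Lag3, set against Cd8a and Cd8b1. They were chosen by name rather than by their values, but with earlier results of these data known. The values are those of 1-kb bins in a pair of regions of mouse chromosome 6 (build mm9), each 120 kb wide. The Cd4-Lag3 region runs from 124780001 to 124900000, with Cd4 from about 124.815 to 124.838 Mb and Lag3 near 124.854 Mb. The Cd8 region runs from 71250001 to 71370000, with Cd8b1 near 71.27 Mb and Cd8a near 71.323 Mb. Together they span 240 bins, of which 236 had a read in either library, out of 2246042 such bins in the genome; the 4 without a read are in the Cd8 region.

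CD4 and CD8 are surface proteins that bind MHC molecules beside the T cell receptor and bring the kinase LCK to it. CD4 binds MHC class II and marks helper T cells, while CD8, a pair of the chains encoded by Cd8a and Cd8b1 or of 2 Cd8a chains, binds MHC class I and marks cytotoxic T cells. Mature T cells as a rule keep only 1 of the coreceptors: helper cells silence Cd8 through the factor ThPOK, and cytotoxic cells silence Cd4 through RUNX factors at a silencer in its first intron. LAG3 is a relative of CD4 that also binds MHC class II and restrains T cells after activation. Acetylation of histone H3 is a mark of active promoters and enhancers, and its levels are read here in helper cells, in which Cd4 is the coreceptor kept.

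The cells were Th2 cells, the interleukin 4-secreting type of helper T cell, made from C57BL/6 mouse spleen. Splenocytes positive for CD4 and CD62L were stimulated through CD3 and CD28 for 5 days in IL-4 (10 ng/ml) with an antibody to interferon gamma (2 µg/ml), and rested for 3 days. Chromatin crosslinked in 0.4% formaldehyde was precipitated with 7 µg of anti-H3KAc, an antibody to acetylated lysines of histone H3, or of polyclonal rabbit IgG, the control for non-specific background. Both groups share strain, tissue and culture, differ only in the antibody as far as the labels say, and consist of 1 library each. The labels do not say how many mice were used.

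With 1 library per antibody no p-value was computed and no difference has a replicate check. Every interval below is an exact 95% interval that covers counting error only, and compares these libraries rather than conditions. Levels are reads per 1000000 distinct positions (RPM), from 19711169 positions in H3KAc and 1897666 in IgG, so that 1 read is worth 0.0507 RPM in H3KAc and 0.527 RPM in IgG. Copies of 1 position averaged 1.11 in H3KAc and 3.62 in IgG within the Cd4-Lag3 region, 1.09 and 3.90 within the Cd8 region, and 1.11 and 4.02 over the genome. IgG had no read in 60.5% of all covered bins, which limits every H3KAc over IgG ratio.

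Of the 4 genes, 1 was matched: Cd8a has a promoter sequence in the RefSeq table used (GRCm38.p6, chromosome 6, plus strand). It is shown as the one sequence of the 4 genes in that table; the highest H3KAc bin of the Cd8a window, given further on, ends at the position stated for the gene on mm9. The sequence covers 250 bases before the start to 50 bases after it. Capitals mark the core GGAA bound by ETS factors, a family of transcription factors, on either strand (TTCC on the strand shown).
Cd8a promoter: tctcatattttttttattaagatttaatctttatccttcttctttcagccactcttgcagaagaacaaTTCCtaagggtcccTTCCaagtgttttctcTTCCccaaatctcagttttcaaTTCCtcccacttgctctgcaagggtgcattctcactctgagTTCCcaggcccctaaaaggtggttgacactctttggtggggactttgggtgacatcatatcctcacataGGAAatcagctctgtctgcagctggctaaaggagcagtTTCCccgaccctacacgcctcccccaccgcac
The core occurs 7 times, against a median of 3 over the 32851 promoters of the table, 96.0% of which hold at least 1. GATA occurs 2 times (57.9% of promoters hold it) and the E-box CANNTG 3 times (72.3%), while the RUNX core TGTGGT (16.8%) and TATAAA (13.6%) have no match on either strand of this window. The promoter holds 3 CG dinucleotides, against a median of 7, and its GC content is 46.7%, against a median of 52.7%. These letters describe the window and say nothing of whether a factor is bound.

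Over the whole regions, the Cd4-Lag3 region carried more H3KAc than the Cd8 region, and it also carried more IgG. H3KAc held 2810 reads in the Cd4-Lag3 region, or 1.19 RPM per kb (1.14 to 1.23), and 1347 reads in the Cd8 region, or 0.570 RPM per kb (0.540 to 0.601). The H3KAc level was thus 2.09 times as high around Cd4 and Lag3 as around Cd8 (1.95 to 2.23). In the central 40 kb of each region it was 1.37 times as high (1.23 to 1.54). IgG held 216 reads in the Cd4-Lag3 region, or 0.949 RPM per kb (0.826 to 1.08), and 106 in the Cd8 region, or 0.466 RPM per kb (0.381 to 0.563). The IgG level was 2.04 times as high (1.61 to 2.60), nearly the same factor, and 1.28 times as high in the central 40 kb (0.827 to 2.00).

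Relative to IgG, the difference between the regions was within counting error. H3KAc over IgG was 1.25 (1.09 to 1.45) in the Cd4-Lag3 region and 1.22 (1.003 to 1.51) in the Cd8 region. The first was 1.02 times the second, with an interval from 0.796 to 1.31 that includes differences in either direction. With the reads of the minus strand alone the lower bounds of both ratios dropped under 1, at 0.996 for the Cd4-Lag3 region and 0.909 for the Cd8 region. That of the Cd8 region was also under 1 with plus-strand reads (0.942), thinned H3KAc (0.942) and IgG scaled by background bins (0.988).

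Against the genome, the Cd4-Lag3 region stood high in H3KAc and the Cd8 region near the middle. The H3KAc level of the Cd4-Lag3 region was reached by 3.78% of 12183 tiles of 120 kb, and that of the Cd8 region by 40.2%, where the median tile had 0.502 RPM per kb. The IgG levels of the Cd4-Lag3 region and the Cd8 region were reached by 14.0% and 51.5% of tiles, with a median tile of 0.474 RPM per kb. Their H3KAc over IgG ratios were reached by 24.6% and 27.5% of tiles, with a median tile of 1.05. Both regions thus lay above the median tile in this ratio, and many other tiles had as high a ratio.

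**Figure D1:**
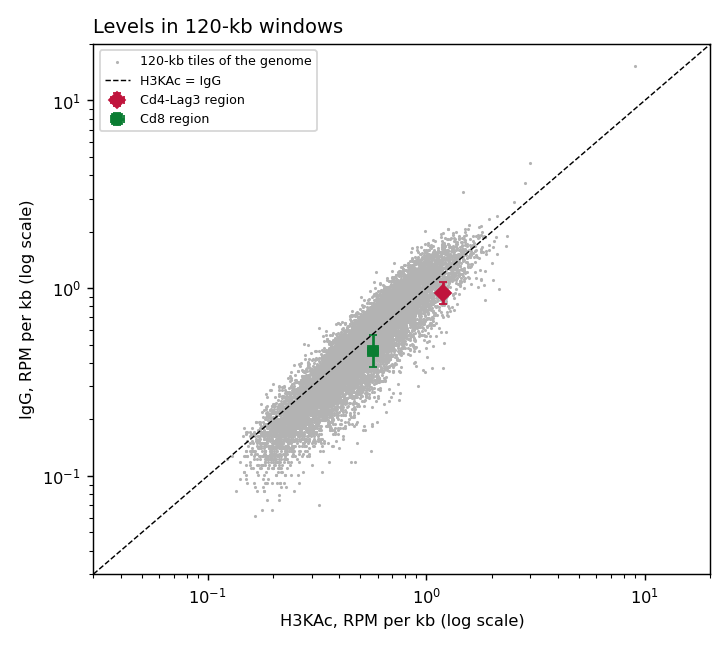
H3KAc level (horizontal axis) and IgG level (vertical axis) in RPM per kb, both on log scales, in tiles of 120 kb (grey) and in the Cd4-Lag3 region (red) and the Cd8 region (green), with exact Poisson 95% intervals. The dashed line marks equal levels. The Cd4-Lag3 region lies to the right of and above the Cd8 region, at 1.19 against 0.570 RPM per kb in H3KAc and 0.949 against 0.466 in IgG, so that both lie at about the same distance below the line.

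The bins with the most H3KAc were in the Cd4-Lag3 region. In the Cd4-Lag3 region 12 of 120 bins (10.0%) held at least 46 reads, the 99th percentile of covered bins, and in the Cd8 region 0 of 120 did, against 1.02% of all covered bins. At or above the 95th percentile (24 reads) lay 42 of 120 bins (35%) in the Cd4-Lag3 region and 6 of 120 (5.00%) in the Cd8 region, against 5.57% of all covered bins. The share in the Cd8 region is thus close to the background. H3KAc reads per bin ranged from 3 to 122 with a median of 17.5 in the Cd4-Lag3 region, and from 0 to 35 with a median of 10 in the Cd8 region, against a genome median of 6. The variance of the bin counts was 16.7 times their mean in the Cd4-Lag3 region, 4.47 times in the Cd8 region and 14.0 times over the genome.

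The high bins were divided between the gene windows and the rest of the region about as the widths of these parts. Of the 12, the window around Cd4 (its stretch and 5 kb beyond its upper end) held 1, and the window 10 kb to each side of the Lag3 position held 3. The other 8 were outside, 3 of them below Cd4 and 5 above the Lag3 window. The Cd4 and Lag3 windows together span 48 kb and held 4 of the 12. The 72 kb outside them held 8, so the split is near that by width and no result about the genes. In the gene order of GRCm38, Gpr162, P3h3, Gnb3 and Cdca3 follow one another on the lower side of Cd4, and Ptms and Mlf2 follow Lag3 on the upper side. No mm9 position of these neighbours was used, so the bins are not assigned to them. Outside the gene windows H3KAc was 2.35 times as high in the Cd4-Lag3 region as in the Cd8 region (2.16 to 2.55), and within them 1.70 times (1.52 to 1.90).

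**Figure D2:**
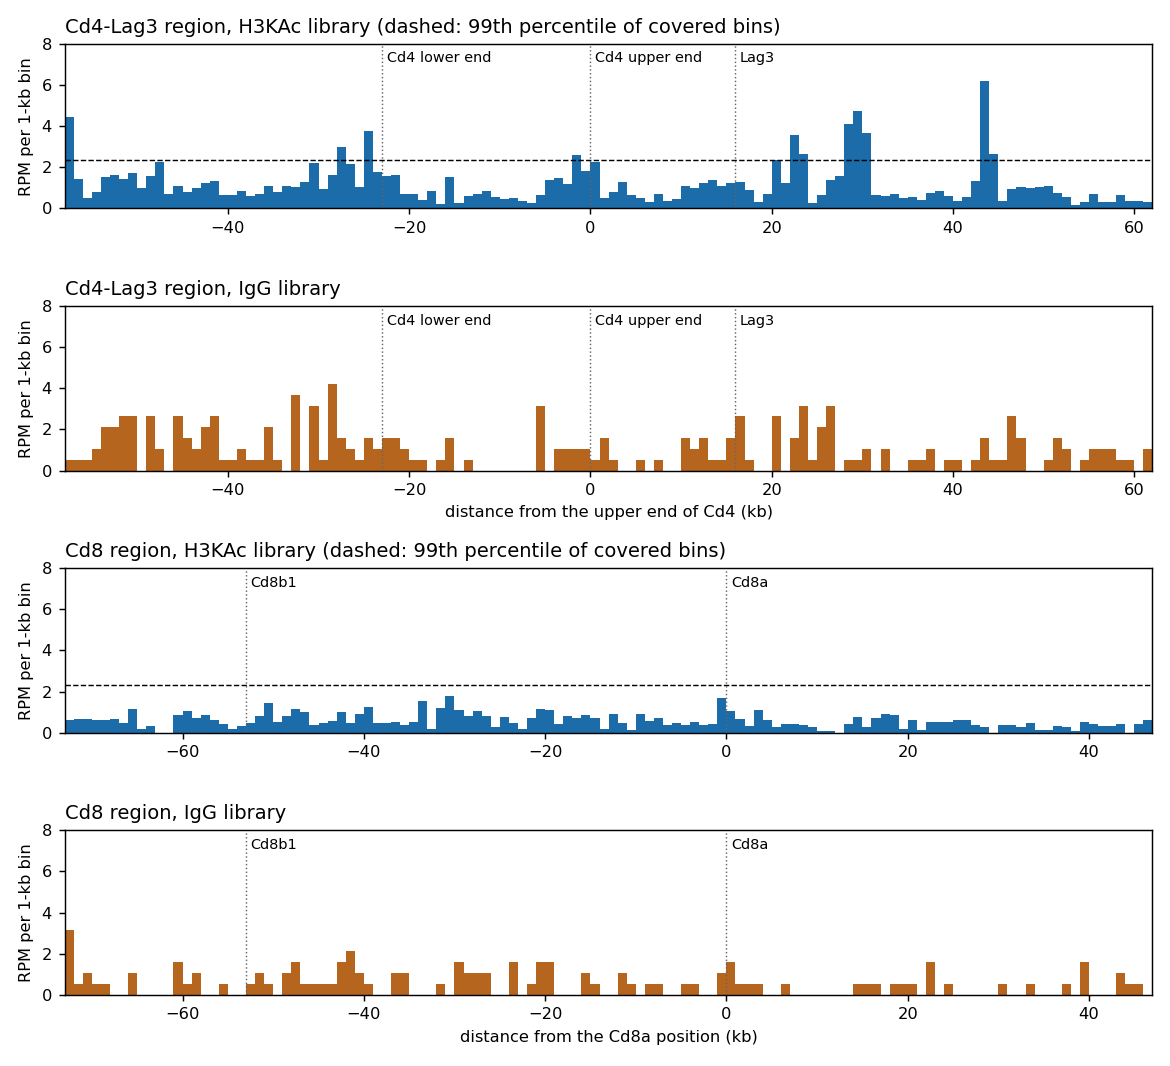
RPM per 1-kb bin (vertical axes) along the Cd4-Lag3 region (upper panels) and the Cd8 region (lower panels), in H3KAc (blue) and IgG (brown), by distance in kb from the upper end of Cd4 or from the Cd8a position. Dotted lines mark the positions of the genes, and the dashed line the 99th percentile of covered bins (46 reads). Several groups of H3KAc bins pass the dashed line in the Cd4-Lag3 region, the highest with 122 reads, and none does in the Cd8 region, where the highest bin holds 35.

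Cd4 showed its highest H3KAc at the end where the gene starts. Mouse Cd4 is read from the minus strand, so its start is at the upper end, about 124.838 Mb. The bins from 124836001, 124837001 and 124838001 held 51, 36 and 45 H3KAc reads and 2, 2 and 1 IgG reads. Together these 3 bins, picked after their values were seen, had 2.23 RPM per kb in H3KAc (1.87 to 2.65) and 0.878 in IgG, a ratio of 2.54 (1.06 to 7.96). At finer scale, the 200-bp bin with the most H3KAc reads of the Cd4 window lay from 124837801 to 124838000, with 20 H3KAc reads and 0 IgG reads. It ends at the position stated for that end, which is approximate, so its distance from the start is not known. The second, from 124836001 to 124836200, held 18 H3KAc reads and 0 IgG reads.

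A 10-kb stretch inside Cd4, picked after its values were seen, was lower than the start of the gene. Between 5 and 15 kb below the upper end, from 124823001 to 124833000, H3KAc averaged 0.522 RPM per kb (0.427 to 0.634), from 103 reads against 7 in IgG. Bins there ranged from 5 to 17 H3KAc reads, with a median of 10.5, and 8 of the 10 had no IgG read. The interior was not low throughout: the bin from 124822001, just below this stretch, held 30 H3KAc reads and 3 IgG reads. Within it, the 200-bp bin from 124822601 to 124822800 held 16 H3KAc reads and 0 IgG reads. Only the 2 such bins named above held more in the Cd4 window. The 5 kb from 124825001 to 124830000 held 61 H3KAc reads and 0 IgG reads, with 3 reads taken as the limit that a count of 0 allows. The lower end of the gene was higher again, with 99 H3KAc and 10 IgG reads from 124815001 to 124820000, or 1.01 and 1.05 RPM per kb. The stretch from 124823001 was thus lower than the lower end in both libraries. Its IgG level rests on 7 reads, 6 of them in the bin from 124832001, and no interval was computed for the IgG difference. The stretch was low only beside other parts of the gene: its median of 10.5 H3KAc reads per bin was above the genome median of 6.

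The whole Cd4 window had an H3KAc level of 0.957 RPM per kb (0.877 to 1.04) and an IgG level of 0.640 RPM per kb (0.443 to 0.894), from 528 and 34 reads. The ratio was 1.495 (1.06 to 2.18). Within 5 kb of the start it was 2.04 (1.17 to 3.87), from 275 and 13 reads, and H3KAc was 1.40 RPM per kb. Of the 4 genes, Cd4 alone had a lower bound above 1, in both window widths, when distinct positions of both strands were counted. With all reads as deposited, copies included, all 4 had one. A bound depends on read number as well as on the ratio. In the wider windows Cd8a had a higher ratio than Cd4, 1.71 (0.981 to 3.26). It rested on 13 IgG reads in 20 kb, against 34 in 28 kb around Cd4. Within 5 kb of the positions Cd4 had the highest of the 4 ratios, but only its window was matched to a gene start. For the whole Cd4 window the lower bound was under 1 when H3KAc was thinned to the IgG number (0.974). It was also under 1 with reads of the plus strand (0.854) or minus strand (0.985) alone.

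Between Cd4 and Lag3, from 124838001 to 124854000, H3KAc averaged 0.932 RPM per kb (0.829 to 1.05) and IgG 0.659 RPM per kb. Around Lag3, the 20 kb centred on the Lag3 position held 448 H3KAc reads, or 1.14 RPM per kb (1.03 to 1.25), and 39 IgG reads, or 1.03 RPM per kb (0.731 to 1.41). The ratio was 1.11 (0.796 to 1.58). Within 5 kb of the position, H3KAc was 1.15 RPM per kb (1.002 to 1.31), IgG was 1.11 RPM per kb, and their ratio was 1.04 (0.662 to 1.71). Among 83253 tiles of 20 kb, 5.70% reached its H3KAc level, 11.96% its IgG level and 46.7% its ratio.

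The high bins of the Lag3 window lay 4 to 8 kb above the single position given for the gene. The bin from 124858001 held 46 H3KAc reads against 5 in IgG, that from 124860001 held 70 against 3, and that from 124861001 held 52 against 6. Of these, the bin from 124860001 had a ratio of 2.25 (0.738 to 11.2). Ratios of the other bins were below 1, at 0.886 (0.353 to 2.86) and 0.834 (0.359 to 2.38). The 200-bp bins with the most reads lay from 124858201 to 124858400 and from 124860201 to 124860400, with 26 and 25 H3KAc reads and 2 and 1 IgG reads. Lag3 is also read from the minus strand, so its start lies above the rest of the gene. The extent of the gene on mm9 was not used here, so none of these bins is called its promoter.

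Beyond the Lag3 window lay the highest H3KAc of the region. The bins from 124866001, 124867001 and 124868001 held 81, 93 and 72 H3KAc reads and 1, 1 and 2 IgG reads. That from 124881001 held 122 H3KAc reads, or 6.19 RPM (5.14 to 7.39), against 3 IgG reads, and 0.127% of covered bins had as many. The 5 kb from 124865001 to 124870000 had 2.94 RPM per kb in H3KAc and 0.422 in IgG, a ratio of 6.98 (2.70 to 25.8), the highest of the 5-kb segments of both regions that held an IgG read. At the lower edge of the region, the bin from 124780001 held 88 H3KAc reads and 1 IgG read. The bins from 124810001 and 124813001, just below Cd4, held 59 and 74 H3KAc reads against 3 IgG reads each.

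No bin of either region was called enriched by the rule that needs a lower bound of the ratio above 2, which called 0.0836% of the 1409765 bins tested genome-wide. Here 119 and 103 bins were tested in the Cd4-Lag3 region and the Cd8 region, so a count of 0 is near that background and no result about the genes. With all reads as deposited, whose copies enter the intervals as independent, 15 and 3 bins were called. With a lower bound above 1, 4 bins were called in the Cd4-Lag3 region (3.36%) and 0 in the Cd8 region, against 0.651% of bins genome-wide. They start at 124780001, 124866001, 124867001 and 124881001, all outside the Cd4 and Lag3 windows. When IgG was summed over the 11 bins around each bin, the bin from 124868001 was called as well, giving 5 in the Cd4-Lag3 region (4.20%) and 0 in the Cd8 region, against 2.15% of bins genome-wide. The bins at the upper end of Cd4 missed that rule: that from 124838001 had a ratio of 3.40 with a lower bound of 1.84, and that from 124836001 a ratio of 2.84 with a lower bound of 1.65. No bin of either region was under-represented in H3KAc (upper bound below 0.5), against 0.629% of bins genome-wide.

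Around Cd8a, the 20 kb centred on its position held 231 H3KAc reads, or 0.586 RPM per kb (0.513 to 0.667), and 13 IgG reads, or 0.343 RPM per kb (0.182 to 0.586). The ratio was 1.71 (0.981 to 3.26), from few IgG reads, and 18.2% of 20-kb tiles reached it. Any tile without an IgG read counts as reaching it. H3KAc there ranged from 5 to 33 reads per bin with a median of 8.5. The highest bin, from 71322001 to 71323000, ends at the position given for Cd8a. It held 33 H3KAc reads, or 1.67 RPM (1.15 to 2.35), and 2 IgG reads, and 2.28% of covered bins had as many H3KAc reads. The bin after it held 21 and 3 reads. Between 71330001 and 71335000, above the gene position, H3KAc held 24 reads over 5 kb, or 0.243 RPM per kb, and IgG 0 reads.

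Cd8b1 resembled Cd8a in level. Its 20-kb window held 248 H3KAc reads, or 0.629 RPM per kb (0.553 to 0.712), and 20 IgG reads, or 0.527 RPM per kb (0.322 to 0.814). The ratio was 1.19 (0.756 to 1.99), which 40.5% of 20-kb tiles reached. The highest bin of the window, from 71272001 to 71273000, lay 2 to 3 kb above a position that is given to the nearest 10 kb, and held 28 H3KAc reads and 1 IgG read. H3KAc held 0 reads in 2 bins of the window, from 71260001 and 71261001, where IgG held 0 as well.

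The highest bin of the whole Cd8 region was at neither position. It ran from 71292001 to 71293000, between Cd8b1 and Cd8a, and held 35 H3KAc reads and 0 IgG reads. The bins from 71289001 and 71291001 held 30 and 24 H3KAc reads, and that from 71283001, nearer to Cd8b1, held 25. Enhancers of the Cd8 genes are known to lie between and around them, but their mm9 positions were not used here, and none of these bins is assigned to one. Between the gene positions, over 53 kb, H3KAc averaged 0.721 RPM per kb (0.670 to 0.774), against 0.372 (0.329 to 0.419) in the 37 kb above the Cd8a window. IgG differed the same way, at 0.587 RPM per kb between the genes and 0.285 RPM per kb above the window.

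**Figure D3:**
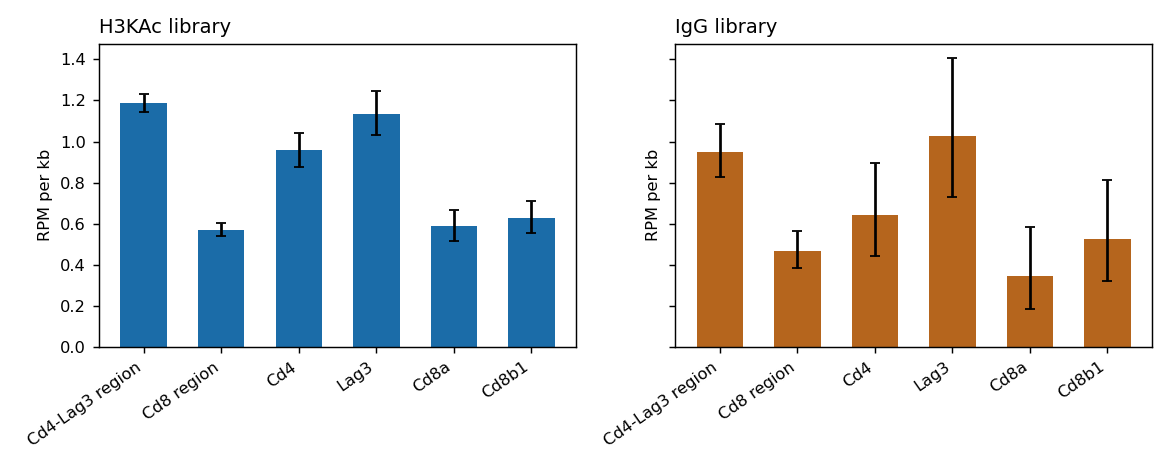
H3KAc level (left, blue) and IgG level (right, brown) in RPM per kb (vertical axis) in both regions and in the windows around the 4 genes; bars are the counts of 1 library each and error bars exact Poisson 95% intervals. In H3KAc, Cd4 (0.957) and Lag3 (1.14) stand above Cd8a (0.586) and Cd8b1 (0.629) with no overlap of intervals, while in IgG, among the genes, the intervals of Lag3 and Cd8a do not overlap and the others do.

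From the highest H3KAc level to the lowest, the gene windows were Lag3, Cd4, Cd8b1 and Cd8a, but within 5 kb of the gene positions Cd4 came before Lag3 and Cd8a before Cd8b1. The 4 genes give 6 pairs, of which 4 set a Cd4-side gene against a Cd8 gene. H3KAc was 1.63 times as high around Cd4 as around Cd8a (1.40 to 1.91) and 1.52 times as high as around Cd8b1 (1.30 to 1.78). It was 1.94 times as high around Lag3 as around Cd8a (1.65 to 2.28) and 1.81 times as high as around Cd8b1 (1.54 to 2.12). All of these differences exceeded counting error. Within 5 kb of the gene positions, the H3KAc level of Cd4 was 1.98 times that of Cd8a (1.61 to 2.44) and 2.18 times that of Cd8b1 (1.76 to 2.72). That of Lag3 was 1.63 times that of Cd8a (1.31 to 2.02) and 1.79 times that of Cd8b1 (1.44 to 2.25). Cd4 had 0.842 times the level of Lag3 in the wider windows (0.741 to 0.957) and 1.22 times within 5 kb (1.02 to 1.46). The direction between these neighbours thus depends on the window. The wider windows are also unlike: that of Cd4 covers its whole stretch and 5 kb beyond it, 28 kb in all. Those of the other genes cover 20 kb centred on a position. Within 5 kb, the Cd4 window is centred on the start of the gene. Those of Lag3, Cd8a and Cd8b1 are centred on single approximate positions, which were not matched to a start. The position of Cd8b1 is given only to the nearest 10 kb. The comparisons of Cd4 within 5 kb are thus not between like places. Cd8a had 0.932 times the level of Cd8b1 in the wider windows (0.775 to 1.12) and 1.10 times within 5 kb (0.861 to 1.42), both within counting error.

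Divided by IgG, none of the 6 pairs differed beyond counting error. The ratio of H3KAc over IgG around Cd4 was 0.874 times that around Cd8a (0.415 to 1.74) and 1.25 times that around Cd8b1 (0.668 to 2.29). That around Lag3 was 0.646 times that around Cd8a (0.310 to 1.27) and 0.926 times that around Cd8b1 (0.5003 to 1.67). Cd4 against Lag3 gave 1.35 (0.816 to 2.25) and Cd8a against Cd8b1 gave 1.43 (0.661 to 3.21). IgG itself was 3.00 times as high around Lag3 as around Cd8a (1.57 to 6.13) and 1.95 times as high as around Cd8b1 (1.11 to 3.53). Each interval spans a factor of more than 2.5 from end to end, since the windows held between 13 and 39 IgG reads. Differences that lie within these intervals could not be told from none at this depth.

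**Figure D4:**
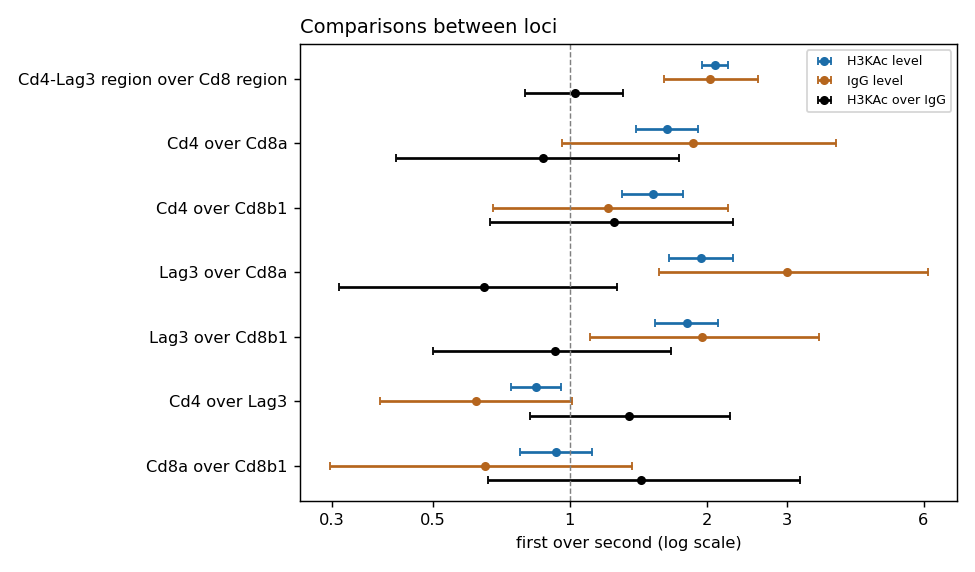
Ratio of the first locus to the second (horizontal axis, log scale) for the H3KAc level (blue), the IgG level (brown) and H3KAc over IgG (black), with exact 95% intervals, for the regions and the 6 pairs of gene windows. The H3KAc intervals of the Cd4-side loci over the Cd8 loci lie above 1, with ratios from 1.52 to 2.09, while every interval of H3KAc over IgG includes 1.

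Across the bins of a region, bins with more H3KAc tended to hold more IgG. Over 120 bins the Pearson correlation was 0.284 in the Cd4-Lag3 region and 0.377 in the Cd8 region, and Spearman's rho was 0.463 and 0.474. All bins come from the same library pair, and their mappability and base composition were not measured, so the values are descriptions. IgG had no read in 32 of 120 bins (26.7%) of the Cd4-Lag3 region and in 57 of 120 (47.5%) of the Cd8 region. H3KAc reads fell evenly on the strands, with 1430 plus and 1380 minus reads in the Cd4-Lag3 region and 665 plus and 682 minus reads in the Cd8 region.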

How the data were processed

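ChIP-seq reads of 1 H3KAc and 1 IgG library from mouse Th2 cells were used. The deposited files list 1 aligned read of 35 bases per row without normalization, per the file descriptions. Reads were aligned with Bowtie to mm9, per the submitters' processing notes (version, filters and handling of multiple alignments: not given in the sources used here). From them, distinct combinations of chromosome, strand and 5' end were counted, shifted by 100 bp in the direction of the strand, put into 1-kb bins and scaled to RPM. PCR copies carry no molecular identifier.

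Gene positions are the approximate mm9 positions stated above. The gene and promoter tables are RefSeq's on GRCm38 and gave names, order and sequence only. Protein-coding genes of the pathway elsewhere in the genome had no mm9 position here and were not analysed. RNA was not measured.

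Ratios have exact conditional binomial (Clopper-Pearson) 95% intervals, levels exact Poisson ones, and ratios of ratios the exact conditional interval of the odds ratio. Bins whose H3KAc and IgG reads summed to at least 5 were tested. Tiles had at least 90% of their bins covered, and a tile without an IgG read was counted as reaching any ratio. The named bins are the 5 with the most H3KAc reads in each region, every called bin and the highest bins of each gene window; 200-bp bins, 3 bins at the Cd4 start and other stretches were chosen after their values were seen. The genes, windows and tests were chosen with earlier results of these data known. The calling and the intervals were tested on simulated counts, drawn independently with Poisson error, so that test covers counting error alone. The tools were scipy 1.17.1 and numpy 2.4.6 for the statistics, matplotlib 3.10.9 for the plots and pandas 2.3.3 for the tables, under Python 3.11.15.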

Additional observations from a re-analysis of the deposited data

How the results depend on the processing

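Over 15 settings, 87 of 98 recomputed values stayed within the main interval or within 1.5 times the main count. Some of them could not move. With 0 bins above a lower bound of 2, none can pass a lower bound of 4. The IgG level ratio cannot change when only H3KAc is thinned. The 0 enriched bins of the Cd4-Lag3 region became 15 when all reads were counted, 4 when the lower bound had to exceed 1 and 5 with IgG over 11 bins; the 0 of the Cd8 region became 3 with all reads. Copies enter the intervals as independent there. The 12 bins at or above the 99th percentile in the Cd4-Lag3 region became 7 with H3KAc thinned to the IgG number and 42 at the 95th percentile, where the Cd8 region had 6 in place of 0. The H3KAc level of the Cd4-Lag3 region over the Cd8 region, 2.09, was 1.37 in the central 40 kb, where the IgG level ratio was 1.28. It was 1.70 in the gene windows and 2.35 outside them, both chosen after seeing the data. The ratio of H3KAc over IgG between the regions ranged from 0.921 to 1.12. With all reads, the ratio around Lag3 (1.51, 1.22 to 1.86), Cd8a (1.66, 1.24 to 2.27) and Cd8b1 (1.47, 1.12 to 1.97) had a lower bound above 1. The H3KAc level of Cd4 over Lag3 turned from 0.842 to 1.22 within 5 kb of the positions. There the Cd4 window is centred on the gene start and the Lag3 window on a single approximate position. No paired analysis was possible because there was 1 library per antibody. IgG depth limits every ratio.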
